A study of Mus musculus with 99 samples.

Results

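Bone morphogenetic protein (BMP) ligands, the Id genes that BMP signalling switches on, and the inhibitory Smads were followed through the loss of Polycomb repressive complex 1 (PRC1) activity in mouse embryonic stem cells (ESCs). The set holds 9 of the 55341 gene names in the count table: the ligand genes Bmp2, Bmp4 and Bmp7, the targets Id1, Id2, Id3 and Id4, and the feedback inhibitors Smad6 and Smad7. They were chosen by pathway membership with results of these data already known, so their values are given as a description of these genes and not as independent evidence for the pathway. All 9 passed the filter on low counts in both RNA fits.

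All cells of the main experiment carried constitutive RING1A-/- and floxed RING1B fl/fl alleles with ROSA26::creERT2, so that 4-hydroxytamoxifen (OHT) removes RING1B from cells that already lack RING1A. The Parental line had no transgene. The WT and I53S lines stably expressed a tagged RING1B from a pCAG transgene, either wild type or with the I53S change that abolishes its ubiquitin ligase activity, and each was expanded from selected clones. A separate Eed fl/fl, ROSA26:creERT2 line loses the PRC2 scaffold EED on OHT; the methods name 2 such clones, and the labels do not tie the libraries to them. All lines were kept in serum medium with LIF and 2i. Cells received 0.5 µM OHT or ethanol vehicle, for 72 h unless stated, and each of the 8 RNA groups had 2 libraries. MTF2 knockout (KO) derivatives of the Parental, WT and I53S lines were used for SUZ12 and H3K27me3 ChIP-seq only.

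BMP ligands are secreted dimers that bind paired type I and type II serine/threonine kinase receptors. The receptors phosphorylate SMAD1, SMAD5 and SMAD9, which enter the nucleus with SMAD4 and activate genes such as Id1 to Id4. ID proteins have a helix-loop-helix domain but no DNA-binding region, and they hold E proteins in inactive dimers. SMAD6 and SMAD7 block the receptor or the receptor-regulated Smads and close a negative feedback loop. In mouse ESCs, BMP4 and the Id proteins are known for sustaining self-renewal together with LIF. PRC1 places the H2AK119ub1 mark and PRC2 the H3K27me3 mark at CpG-rich promoters of silent or weakly transcribed genes.

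RNA libraries held 6957248 to 12743460 counts assigned to genes. At the lowest depth the limit of 3 counts, which a count of 0 allows, equalled 0.431 CPM, for counting error only. This limit is the counts scaled by the library's total, before normalization. The CPM of genes are scaled by the total over genes that passed the filter on low counts, times edgeR's TMM normalization factor. That factor was 1.19 in the library of lowest depth, so the limit is not on the scale of the printed CPM. The labels do not say whether the 2 libraries of a group came from separate cultures, so the p-values measure the spread between these libraries. In the Eed line, Eed itself fell from 255 and 173 CPM to 67.1 and 43.7 CPM. Rnf2, which encodes RING1B, was counted at 198 and 257 CPM in Parental cells without OHT and at 144 and 167 CPM with it. Counts are per gene, so reads from inside and outside the deleted part cannot be told apart. RING1B peaks fell from 5073 to 690 in the same line.

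The promoters of 5 of the 9 genes were in the RefSeq table used here (GRCm38.p6), and 3 of them lie outside every annotated exon. These 3 are shown because the report follows Polycomb peaks at their genes, which need not lie on the promoter. The 250 bases upstream of the start are written 5′ to 3′ on the gene's strand, with CpG dinucleotides in capitals. Id4 (chr13:48260866-48261115, plus strand) had 35 CpGs, a number exceeded by 2.58% of the 32851 promoters in the table, whose median was 6. Smad6 (chr9:64022060-64022309, minus strand) had 27 and Bmp4 (chr14:46390670-46390919, minus strand) had 11.
Id4: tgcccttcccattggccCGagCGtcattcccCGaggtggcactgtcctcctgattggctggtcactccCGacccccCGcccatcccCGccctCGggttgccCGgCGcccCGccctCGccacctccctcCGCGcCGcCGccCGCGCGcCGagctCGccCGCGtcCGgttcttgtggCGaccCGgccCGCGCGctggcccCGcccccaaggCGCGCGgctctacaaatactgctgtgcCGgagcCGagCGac
Smad6: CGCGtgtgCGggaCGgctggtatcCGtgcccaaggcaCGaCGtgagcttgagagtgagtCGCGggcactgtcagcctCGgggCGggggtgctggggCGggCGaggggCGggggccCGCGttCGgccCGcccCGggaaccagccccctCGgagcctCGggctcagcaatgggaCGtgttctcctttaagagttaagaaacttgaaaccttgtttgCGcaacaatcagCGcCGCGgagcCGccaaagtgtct
Bmp4: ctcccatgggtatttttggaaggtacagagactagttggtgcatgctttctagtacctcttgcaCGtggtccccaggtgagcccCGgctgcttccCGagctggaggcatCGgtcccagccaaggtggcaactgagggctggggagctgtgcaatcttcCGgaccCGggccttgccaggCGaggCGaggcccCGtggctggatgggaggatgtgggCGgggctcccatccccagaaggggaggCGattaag
For Id2 the start in this table lies inside the annotated gene, whose 5′ end is at chr12:25097140. Of its 250 bases, 161 are exonic, and 89 (chr12:25096254-25096342, minus strand) lie within the gene and outside every annotated exon.
Id2: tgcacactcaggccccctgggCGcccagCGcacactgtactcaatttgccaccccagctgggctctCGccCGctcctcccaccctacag
The GC-rich Smad element GGCGCC, searched on both strands, occurred 1 time in the 250 bases of Id4 and 1 time in those of Id2, and was present in 9.59% of all promoters in the table. The E-box CACGTG, which reads the same on both strands, occurred 1 time at Bmp4 and was present in 6.02% of promoters. Smad6 held neither. Bmp2, Bmp7, Id1 and Smad7 had no entry.

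Per kilobase of annotated exon, the genes spanned a wide range in Parental cells without OHT. Id3 was highest at 63.1 and 74.3 CPM per kb in the 2 libraries. Smad7 followed at 13.9 and 14.7, then Id1 at 9.34 and 12.3, and Bmp4 at 6.49 and 8.41 CPM per kb. Id2 stood at 5.98 and 6.14 CPM per kb, and its libraries overlapped those of Id4, at 3.28 and 6.68, which in turn overlapped those of Bmp7, at 2.49 and 3.41. Smad6 was at 0.788 and 0.694 CPM per kb and Bmp2 at 0.0917 and 0. With OHT the order changed, and Id2 was highest at 110 and 117 CPM per kb, above Id1 at 54.9 and 79.5 and Id3 at 49.6 and 53.7.

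Whether loss of PRC1 changed these genes was addressed by comparing OHT with vehicle in the Parental line. Of the 9 genes, 3 rose and 1 fell, beside 17% of the 18154 genes tested that were called in either direction, 15.1% higher and 1.83% lower. A gene was called where edgeR's quasi-likelihood test gave a Benjamini-Hochberg adjusted p under 0.05 and the log2 fold change reached 1.5 in either direction. The median log2 fold change was 0.87 over the 9 genes and 0.03 over all genes tested. Bmp2, Id1 and Id2 rose, Id4 fell, and the other 5 were not called.

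**Figure D1:**
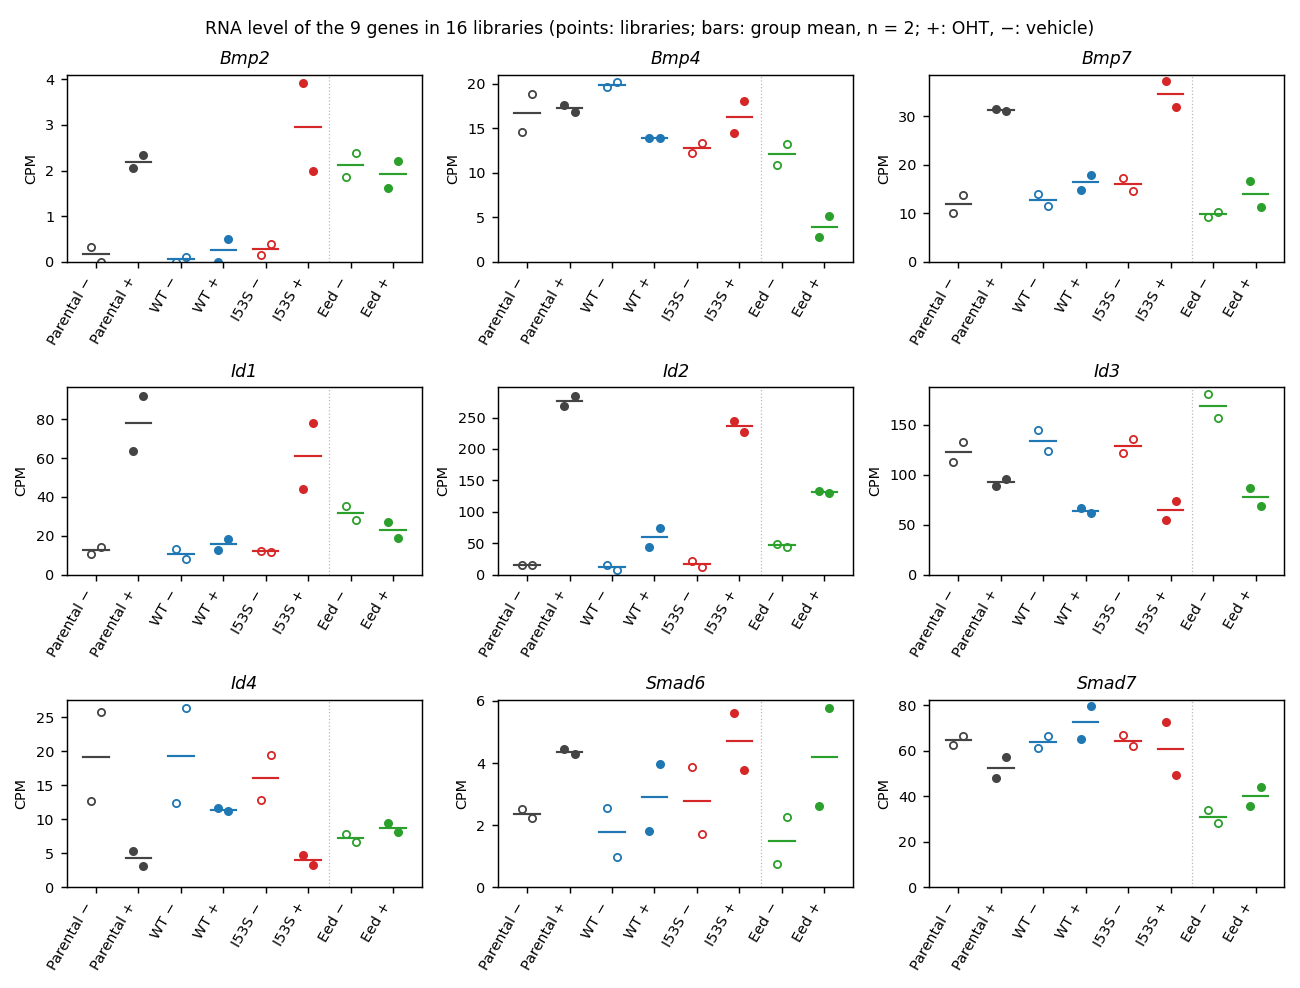
CPM of each gene (y axis, linear, from 0) in all 16 RNA libraries by line and treatment (x axis), with points for libraries, open for vehicle and filled for OHT, and bars for the mean of 2. Id2 in Parental cells moves from 14.6 and 14.96 to 268 and 284 CPM, while Bmp4 stays between 14.6 and 18.9 CPM in both conditions.

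Among the ligands, Bmp2 rose from near absence. Parental cells without OHT had 0.326 and 0 CPM, and with OHT 2.05 and 2.34 CPM, so that the groups did not overlap. The fitted log2 fold change was 3.45 ± 0.946 (SE), with an adjusted p of 0.00775. The vehicle libraries held 4 Bmp2 counts in all, and the ratio of summed counts was 11.1 with an exact 95% interval of 4.07 to 42.5 for counting error only. The call was lost without the second vehicle library, where the log2 fold change was 2.67 and the adjusted p 0.0768.

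Bmp7, a ligand of the 60A subgroup, went from 10.0 and 13.7 CPM to 31.6 and 31.0 CPM, a log2 fold change of 1.41 ± 0.241 (SE) and an adjusted p of 0.000161. It passed the adjusted p but not the fold threshold, which it did pass without the second vehicle library, at 1.61. Bmp4, the ligand best known for ESC self-renewal, was at 14.6 and 18.9 CPM without OHT and at 17.7 and 16.9 with it. Its libraries overlapped, and the 95% interval of its log2 fold change ran from -0.44 to 0.54. Bmp4 overlaps 2 genes annotated on the opposite strand, and counting did not use strand, so reads from the overlap could not be assigned by strand.

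The 4 Id genes moved in different directions. Id2 had the largest change of the 9, from 14.6 and 14.96 CPM to 268 and 284 CPM, a log2 fold change of 4.22 ± 0.325 (SE), 18.7-fold higher, with an adjusted p of 2.5e-08. Of all genes tested, 3.22% had a larger log2 fold change. Id1 rose from 10.8 and 14.2 CPM to 63.7 and 92.2 CPM, a log2 fold change of 2.65 ± 0.303 (SE) with an adjusted p of 2.26e-06. Both genes had every OHT library above every vehicle library.

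Id4 went the other way, from 12.6 and 25.7 CPM to 5.38 and 3.12 CPM. Its log2 fold change was -2.15 ± 0.4 (SE) with an adjusted p of 0.000366, and 99.1% of tested genes had a higher value. All OHT libraries lay below the vehicle libraries. The vehicle libraries were further apart than the lower of them was from the higher OHT library in CPM, but not in log2 CPM. Id4 too overlaps 2 genes on the opposite strand. Id3, the most abundant Id transcript without OHT, was at 113 and 133 CPM without OHT and 88.8 and 96.1 CPM with it, with a log2 fold change of -0.41 ± 0.19 (SE) and an adjusted p of 0.101.

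The inhibitory Smads were not called. Smad6 had 2.53 and 2.23 CPM without OHT and 4.44 and 4.29 CPM with it, a log2 fold change of 0.87 with a 95% interval from -0.17 to 1.91. Smad7 had 62.7 and 66.6 CPM without OHT and 48.2 and 57.1 CPM with it, a log2 fold change of -0.30 with an interval from -0.73 to 0.13. In both genes the 2 groups of libraries did not overlap, although neither passed the test.

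The WT and I53S lines carry a RING1B transgene with and without ligase activity. In the WT line with OHT, 1 of the 9 genes was called, beside 1.38% of all genes tested. That gene was Id2, which rose from 15.4 and 7.46 CPM to 44.0 and 74.3 CPM, a log2 fold change of 2.37 ± 0.314 (SE) with an adjusted p of 0.00107. Id3 fell below its vehicle libraries, from 145 and 123 CPM to 66.9 and 61.1 CPM, with a log2 fold change of -1.07 and an adjusted p of 0.00584, which passed the adjusted p but not the fold threshold. Id1 was at 12.9 and 7.79 CPM without OHT and 12.78 and 18.3 CPM with it. Bmp2 was at 0 and 0.110 CPM and at 0 and 0.498 CPM, a ratio of summed counts of 4.11 with an interval from 0.407 to 202. Bmp7, Bmp4, Id4, Smad6 and Smad7 had log2 fold changes between -0.76 and 0.68, and none was called.

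In the I53S line, 3 of the 9 genes rose and 1 fell, beside 13.8% of all genes tested that were called. They were Bmp2, Id1 and Id2, which rose, and Id4, which fell. Id2 went from 21.5 and 11.3 CPM to 244 and 227 CPM, a log2 fold change of 3.84 ± 0.317 (SE) with an adjusted p of 1.39e-07. Id1 went from 12.3 and 11.6 CPM to 44.1 and 78.0 CPM, a log2 fold change of 2.35 with an adjusted p of 1.24e-05. Bmp2 went from 0.155 and 0.384 CPM to 3.91 and 1.98 CPM, a log2 fold change of 3.43 with an adjusted p of 0.00597, and lost its call without the first vehicle library (adjusted p = 0.067) or the first OHT library (adjusted p = 0.0565). Id4 went from 12.9 and 19.4 CPM to 4.81 and 3.36 CPM, a log2 fold change of -1.98 with an adjusted p of 0.00105. Bmp7 and Id3 passed the adjusted p with log2 fold changes of 1.11 and -1.002, under the fold threshold.

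**Figure D2:**
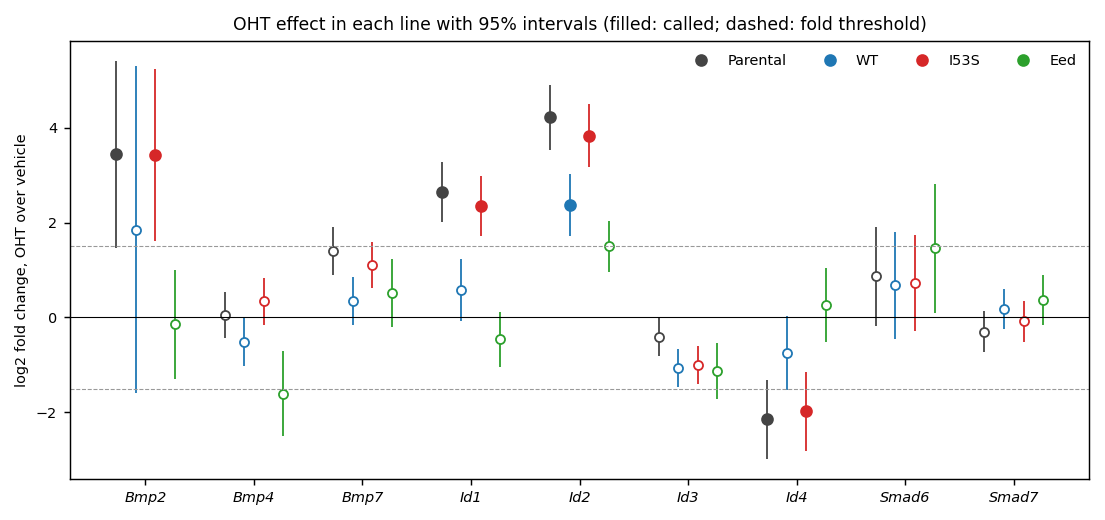
Log2 fold change of OHT over vehicle (y axis) for each gene (x axis) in the 4 lines, with 95% intervals from the edgeR fit (2 libraries a group). Filled points passed both thresholds, and dashed lines mark a log2 fold change of 1.5 in either direction. Id2 is filled in the Parental, WT and I53S lines, at 4.22, 2.37 and 3.84.

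The lines were also compared directly. With OHT, WT cells had lower Bmp2, Id1 and Id2 than Parental cells, 3 of 9 genes beside 8.68% of genes tested. Id1 was 5.03-fold lower (adjusted p = 3.63e-05) and Id2 4.67-fold lower (adjusted p = 4.78e-05), and for both every WT library lay below every Parental library. Bmp2 was 9.18-fold lower with an adjusted p of 0.0236, a call lost without the first WT library with OHT (adjusted p = 0.229) and without either Parental library with OHT (0.0891 and 0.108). Id4 was 2.67-fold higher and Bmp7 1.92-fold lower, both past the adjusted p only, and Id4 passed the fold threshold too without the first Parental library with OHT, at a log2 fold change of 1.87.

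I53S cells with OHT had higher Bmp2, Id1 and Id2 than WT cells with OHT, 3 of 9 genes beside 6.62% of genes tested, in a comparison that shares the WT libraries with the one above. Id2 was 3.99-fold and Id1 3.95-fold higher, with adjusted p of 0.000233 and 0.000315. Without the second I53S library with OHT, the log2 fold change of Id1 was 1.498, just under the fold threshold. Bmp2 was 12.3-fold higher (adjusted p = 0.0143), and its call was lost without the first WT library with OHT (0.173) or the first I53S library with OHT (0.0941).

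Between I53S and Parental cells with OHT, edgeR called 0 of the 9 genes, beside 0.16% of genes tested. DESeq2 also called 0, and 1 gene, Id3, had an unadjusted p under 0.05. The log2 differences ranged from -0.52 at Id3 to 0.42 at Bmp2, and the 95% intervals ran from -0.80 to 0.35 for Id2 and from -0.93 to 0.23 for Id1. Without OHT, edgeR and DESeq2 called 0 of the 9 genes between any 2 of these lines, beside 0.0606% of genes tested for WT against Parental, 0.154% for I53S against Parental and 0.0441% for I53S against WT. Only Bmp4, between I53S and WT, had an unadjusted p under 0.05.

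The difference in the OHT effect itself was tested with an interaction term. The effect was smaller in WT than in Parental cells for Id1, by 2.07 ± 0.429 (SE) on the log2 scale with an adjusted p of 0.0134, and for Id2, by 1.86 ± 0.429 (SE) with an adjusted p of 0.0272. These were 2 of 9 genes, beside 1.54% of genes tested. Both calls rested on single libraries: 0 genes were called without the first WT vehicle, first Parental vehicle, first WT OHT or second Parental OHT library, and 1 without the second Parental vehicle or first Parental OHT library. In I53S against Parental cells, edgeR and DESeq2 called 0 of 9 genes and 0% of genes tested, with 1 member at an unadjusted p under 0.05. In I53S against WT cells edgeR called 0 of 9, beside 0.347% of genes tested, DESeq2 called 1, and 5 had an unadjusted p under 0.05.

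Loss of EED was examined in the Eed line. In this line, fitted separately, edgeR called 0 of the 9 genes, beside 0.00795% of 25170 genes tested. Eed itself, the deleted gene, did not pass the adjusted p in this fit. The lack of calls here therefore does not show that genes were unchanged. DESeq2 also called 0, and 4 genes had an unadjusted p under 0.05. Id2 went from 49.1 and 44.2 CPM to 134 and 130 CPM, a log2 fold change of 1.499 ± 0.249 (SE) with an adjusted p of 0.0881, and passed both thresholds without the second OHT library (adjusted p = 0.00507). Its vehicle level lay above the vehicle levels of the other 3 lines, which ranged from 7.46 to 21.5 CPM in a separate normalization.

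Bmp4 in the Eed line went from 10.9 and 13.3 CPM to 2.74 and 5.15 CPM, a log2 fold change of -1.61 with an adjusted p of 0.48. Id3 went from 181 and 157 CPM to 86.4 and 68.1 CPM, and Smad6 from 0.740 and 2.27 CPM to 2.61 and 5.77 CPM. Id1 had 35.2 and 27.9 CPM without OHT and 27.01 and 18.7 CPM with it, and Bmp2 1.85 and 2.39 CPM and 1.62 and 2.21 CPM. The Id1 OHT libraries therefore lay under the vehicle libraries, while those of Bmp2 overlapped.

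Other genes of the pathway were taken from lists of 56 genes, of which 46 passed the filter in the 12 libraries. In Parental cells 23 of 46 were called higher and 0 lower, beside the 15.1% and 1.83% of all genes. In I53S cells 22 of 46 were called higher and 0 lower, beside 12.8% and 1.04%, and in WT cells 5 of 46 were called higher and 0 lower, beside 1.34% and 0.0386%. The median log2 fold changes were 1.49, 1.44 and 0.32. In the Eed line 0 of 45 tested genes were called, in the fit that did not call Eed itself.

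Among other ligands, 4 of 6 tested were called higher in Parental cells, beside 15.1% of all genes tested: Bmp3, Bmp6, Bmp8a and Bmp8b. The last is a near-identical copy of the gene before it, so the counts of both are uncertain. Of 10 secreted antagonists and modulators tested, which bind ligands outside the cell, 8 were called higher in Parental cells, 6 in I53S cells and 0 in WT cells. The shares of all genes were 15.1%, 12.8% and 1.34%. Without OHT, the median log2 difference of these 10 from Parental cells was 2.01 in WT and 2.29 in I53S cells, with 0 called. Their median OHT effect in Parental cells was 5.69, so the size of their fold changes is uncertain. Of 8 receptor genes, 1 was called, Acvrl1 in Parental cells, and of 4 other Smads 1, Smad9, in Parental and in I53S cells. Of 7 intracellular or membrane inhibitors 0 were called in Parental cells and 1, Zfp423, in I53S cells. The shares of all genes called in either direction were 17% in Parental and 13.8% in I53S cells. The 3 E protein genes, partners of the ID proteins, were not called in any line. Acvrl1, Smad9, Zfp423 and the 4 ligands were named after their values were seen.

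Other reported BMP targets included 9 of 11 called higher in Parental cells, 10 of 11 in I53S cells and 4 of 11 in WT cells. The shares of all genes were 15.1%, 12.8% and 1.34%. Gata3, a transcription factor of trophoblast and other lineages, had a mean of 0.492 CPM without OHT and 52.4 CPM with it in Parental cells (log2 fold change 6.70, adjusted p = 7.02e-10), 0.799 and 36.2 CPM in I53S cells, and 1.41 and 6.26 CPM in WT cells. Hand1 rose to means of 20.7, 13.6 and 3.45 CPM in the same 3 lines. Dlx5 rose to 8.90 CPM in Parental cells and Dlx3 to 26.5 CPM in I53S cells and 5.41 CPM in WT cells. The WT calls of Gata3, Dlx3 and Hand1 were each lost without the second WT vehicle library (adjusted p = 0.0696, 0.0855 and 0.197), and those of Gata3 and Hand1 also without the second WT library with OHT (0.0618 and 0.172).

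Cell type markers also changed with OHT. The lists share genes: Hand1 is among the other BMP targets above and among the trophectoderm and mesoderm markers. In Parental cells 6 of 6 primitive endoderm markers and 4 of 5 mesoderm markers were called higher with OHT, beside 15.1% of genes tested. The summed primitive endoderm markers went from 3.09 to 3.50 CPM to 48.7 to 50.4 CPM, with Gata6 and Sox7 at 0 without OHT. The mesoderm sum went from 2.44 to 2.47 CPM to 34.2 CPM, of which Hand1 had a mean of 20.7 CPM. In WT cells the primitive endoderm sum was 8.96 to 12.83 CPM with OHT and 3.73 to 4.60 CPM without it. Of these markers 0 of 6 were called, while 2 of 5 trophectoderm and 1 of 5 mesoderm markers were called higher, beside 1.34% of genes tested. In I53S cells with OHT the primitive endoderm sum was 38.4 to 39.1 CPM and 6 of 6 were called higher, beside 12.8%. Of 6 trophectoderm markers, 5 were tested and 3 called higher in Parental cells. The sum of the 6 there was 111 to 131 CPM without OHT and 152 to 185 CPM with it, with no marker at 0. Of the 6 fibroblast markers, 3 were tested and 2 called higher in Parental cells. Their sums there were 11.9 to 14.01 CPM without OHT and 45.7 to 48.4 CPM with it. Col3a1 and Lum were at 0 in Parental cells with OHT. Pluripotency markers in Parental cells fell from 3430 to 4105 CPM to 1937 to 2009 CPM in sum. Of these, 2 of 8 were called lower and 1 higher, beside 1.83% and 15.1% of genes tested. The Eed line, normalized apart, had primitive endoderm sums of 22.3 to 35.7 CPM without OHT and 31.4 to 38.8 CPM with it. Its mesoderm sums were 12.2 to 18.2 CPM and 15.7 to 22.2 CPM. Both sums without OHT were above those of the other lines without OHT, while its trophectoderm sum, 66.8 to 93.4 CPM, was below theirs. In bulk RNA, fewer cells of a type and less RNA per cell cannot be told apart, and the part of these markers in the values of the 9 genes was not tested.

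Across the 12 libraries, levels of the 9 genes were compared as log2 CPM. Pearson's r was 0.94 between Id1 and Id2 and between Bmp7 and Id2, and -0.93 between Id4 and Id2. Bmp4 had r between -0.41 and 0.30 with the other 8. The genes most like Id2 over the 12 libraries were Wnt3 (r = 0.994) and Dusp9 (0.992), those most like Id1 were Brinp1 (0.991) and Hoxd10 (0.988), and those most like Bmp2 were AI593442 (0.982) and Fxyd7 (0.979). Bmp7 was closest to Rilpl1 and Adgrb2 (both 0.987), Id4 to 2700097O09Rik (0.983) and Srsf10 (0.982), and Smad6 to Hcn3 (0.987) and Cmip (0.948). For Id3 the closest were Naa50 (0.932) and Tspyl1 (0.928), for Smad7 Gclm (0.926) and Gm2000 (0.904), and for Bmp4 Gpsm2 (0.805) and Mapre2 (0.786). The 12 points fall into groups by treatment and share their lines, so these values are a description.

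Chromatin at the 9 genes was described from deposited ChIP-seq peaks within 2.5 kb of each gene. For 11 antibodies with libraries in the 4 main conditions there were 99 pairs of gene and antibody. A peak was present in 81 pairs in Parental cells without OHT, 41 in Parental cells with OHT, 79 in WT cells with OHT and 30 in I53S cells with OHT. Over 18123 genes with 1 gene model, the shares of such pairs were 30%, 14.3%, 23.8% and 9.83%. With a score of at least 20, the pairs with a peak numbered 72, 27, 71 and 14, beside 20.2%, 6.48%, 15.3% and 3.37%. Each antibody and condition had 1 library except MTF2 and JARID2 in WT and I53S cells at 72 h, which had 2, of which the first was used for these counts, so the counts carry no replicate error. Scores are the −log10 p of the peak caller and depend on library depth, so they are given within a library.

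**Figure D3:**
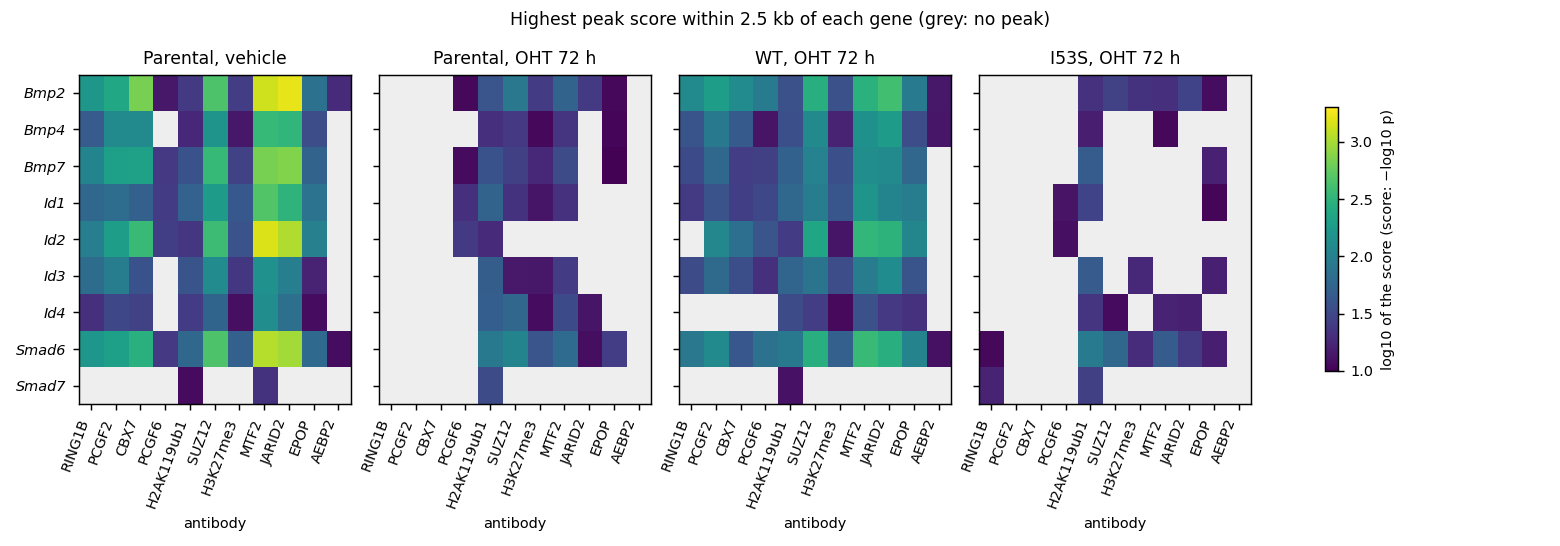
Highest peak score within 2.5 kb of each gene (rows) for 11 antibodies (columns) in 4 conditions (panels), as log10 of the score, with grey for no peak. Parental cells without OHT have 81 of 99 cells filled and I53S cells with OHT 30.

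Without OHT, 8 of the 9 genes, all but Smad7, carried peaks of RING1B, of the canonical PRC1 subunits PCGF2 and CBX7, of the PRC2 subunits SUZ12, JARID2 and EPOP, and of H3K27me3. Over all genes the shares with a peak were 21.6% for RING1B, 20.5% for PCGF2, 20.6% for CBX7, 34.9% for SUZ12, 38.4% for JARID2, 28.8% for EPOP and 32.5% for H3K27me3. H2AK119ub1 and MTF2, a PRC2 subunit with affinity for CpG-rich DNA, had a peak at all 9, beside 29.6% and 62.6% of genes. These counts take the whole gene and its margins. A peak lay on an annotated start site at 7 genes for RING1B, 6 for H3K27me3 and 4 for H2AK119ub1. At Id4 only SUZ12 and MTF2 peaks lay on the start site. The share over all genes was not counted for start sites. Within the SUZ12 library the scores ranged from 54.8 at Id4 to 458 at Smad6 and 453 at Bmp2, and within the MTF2 library from 21.6 at Smad7 to 1513 at Id2. AEBP2, another PRC2 subunit, had peaks only at Bmp2 and Smad6, beside 4.88% of genes. PCGF6, of a variant PRC1, had peaks at Bmp2, Bmp7, Id1, Id2 and Smad6, beside 35.6%. RYBP, a subunit of variant PRC1, had libraries in 3 of the 4 conditions, with peaks at Bmp7, Id1 and Id2 in Parental cells without OHT, beside 15% of genes, at Bmp2, Bmp7 and Smad6 in WT cells with OHT, beside 5.97%, and at 0 genes in I53S cells with OHT, beside 4.2%.

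In Parental cells with OHT, no RING1B, PCGF2, CBX7 or AEBP2 peak was left at any of the 9 genes, beside 2.95%, 0.48%, 0.243% and 0.0276% of all genes. Of the genes with such a peak without OHT, 6.08%, 1.59%, 1.07% and 0.339% kept it. H2AK119ub1 peaks were called at all 9, beside 26.5% of all genes and 65.6% of the genes with such a peak without OHT. The number of H2AK119ub1 peaks in the genome fell from 12648 to 5450. Within the widened regions of 10 kb around the genes, the length under H2AK119ub1 peaks fell at Id3 from 16084 to 4111 bp, at Bmp7 from 12447 to 2779 bp at Id1 from 9148 to 1231 bp, at Bmp4 from 6619 to 2716 bp and at Id2 from 4420 to 2630 bp. It was higher with OHT at Bmp2 (1502 and 2252 bp), Id4 (1465 and 1810 bp), Smad6 (2873 and 3766 bp) and Smad7 (496 and 2852 bp). Peaks were called within each library, and the methods describe scaling by the Drosophila spike-in for signal tracks only. A called peak or its length therefore does not measure the level of the mark. By western blot, the paper reported global loss of H2AK119ub1 in Parental and I53S cells with OHT. None of the 4 input libraries with a peak file had a peak at any of the 9 genes. They were inputs of the H3K27me3 libraries of MTF2 KO cells, with 9 to 19 peaks in the genome. They are not inputs of the H2AK119ub1 libraries, and with so few peaks they say little about these genes.

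SUZ12, MTF2 and H3K27me3 peaks remained at 7 of the 8 genes that had carried all 3, the exception in each case being Id2, and the weak MTF2 peak of Smad7 was absent too. This stood beside 67.1%, 48.7% and 69.2% of the genes with such a peak without OHT. JARID2 peaks remained at Bmp2, Id4 and Smad6, 3 of 8, beside 14.8%, and EPOP peaks at Bmp2, Bmp4, Bmp7 and Smad6, 4 of 8, beside 39.7%. PCGF6 peaks remained at 4 of 5, beside 59.5%.

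The transgenes differed in what they kept. In WT cells with OHT, RING1B peaks were present at 6 of the 8 genes, beside 70.8% of the genes with a peak in Parental cells without OHT, PCGF2 and CBX7 peaks at 7 of 8, beside 73.1% and 51.8%, and SUZ12, JARID2, EPOP and H3K27me3 peaks at all 8, beside 79.1%, 56.9%, 88.5% and 86.9%. Id4 lacked RING1B, PCGF2 and CBX7 peaks, and Id2 lacked a RING1B peak inside the margin. In I53S cells with OHT, RING1B had a peak at Smad6 and Smad7 only, with scores of 11.2 and 16.8, beside 5% of all genes. PCGF2 and CBX7 had none, beside 2.73% and 0.0938%. Of the genes with a RING1B, PCGF2 or CBX7 peak in Parental cells without OHT, 11.7%, 12% and 0.403% had it here. SUZ12 peaks were present at Bmp2, Id4 and Smad6, 3 of 8, beside 42.6%, H3K27me3 peaks at Bmp2, Id3 and Smad6, 3 of 8, beside 56.7%, and EPOP peaks at 5 of 8, beside 41.6%. H2AK119ub1 was called at all genes but Id2, 8 of 9, beside 43.9%. These calls do not use the spike-in, and the paper reported complete loss of the mark at PRC1 target loci in these cells.

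The 2 libraries of I53S cells at 72 h differed. MTF2 had peaks at 4 of the 9 genes in the first, beside 13.9% of all genes and with 3091 peaks in the genome, and at 7 in the second, beside 31.6% and with 7546. JARID2 had peaks at 3 genes in the first, beside 4.42%, and at 0 in the second, beside 1.69%. In WT cells both libraries of each antibody had peaks at the same 8 genes, beside 33.8% and 30.4% for MTF2 and 21.9% and 21.7% for JARID2. At 48 h, MTF2 peaks were present at 7 genes in Parental and in I53S cells, all but Id2 and Smad7, and JARID2 peaks at the same 7 in Parental cells and at Bmp2, Id3 and Smad6 in I53S cells. The I53S shares over all genes were 36.7% for MTF2 and 4.32% for JARID2. Of all genes with such a peak without OHT, Parental cells at 48 h had kept 56.1% for MTF2 and 32.2% for JARID2.

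At Id2 the loss of peaks depended on the window. The annotated gene spans chr12:25093799-25097140 on the minus strand. Without OHT, 1 MTF2 peak (chr12:25094282-25102422) of 8141 bp covered the start sites and most of the gene and reached upstream, and SUZ12 and JARID2 had peaks of 7387 and 8056 bp over the same stretch. In Parental cells with OHT the MTF2 peak was 1598 bp long (chr12:25099727-25101324), 2587 bp upstream of the gene, and that of SUZ12 was 1469 bp long, 2756 bp upstream, both just beyond the margin of 2.5 kb. H3K27me3 had a peak 3220 bp upstream, and JARID2 had none within 10 kb.

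**Figure D4:**
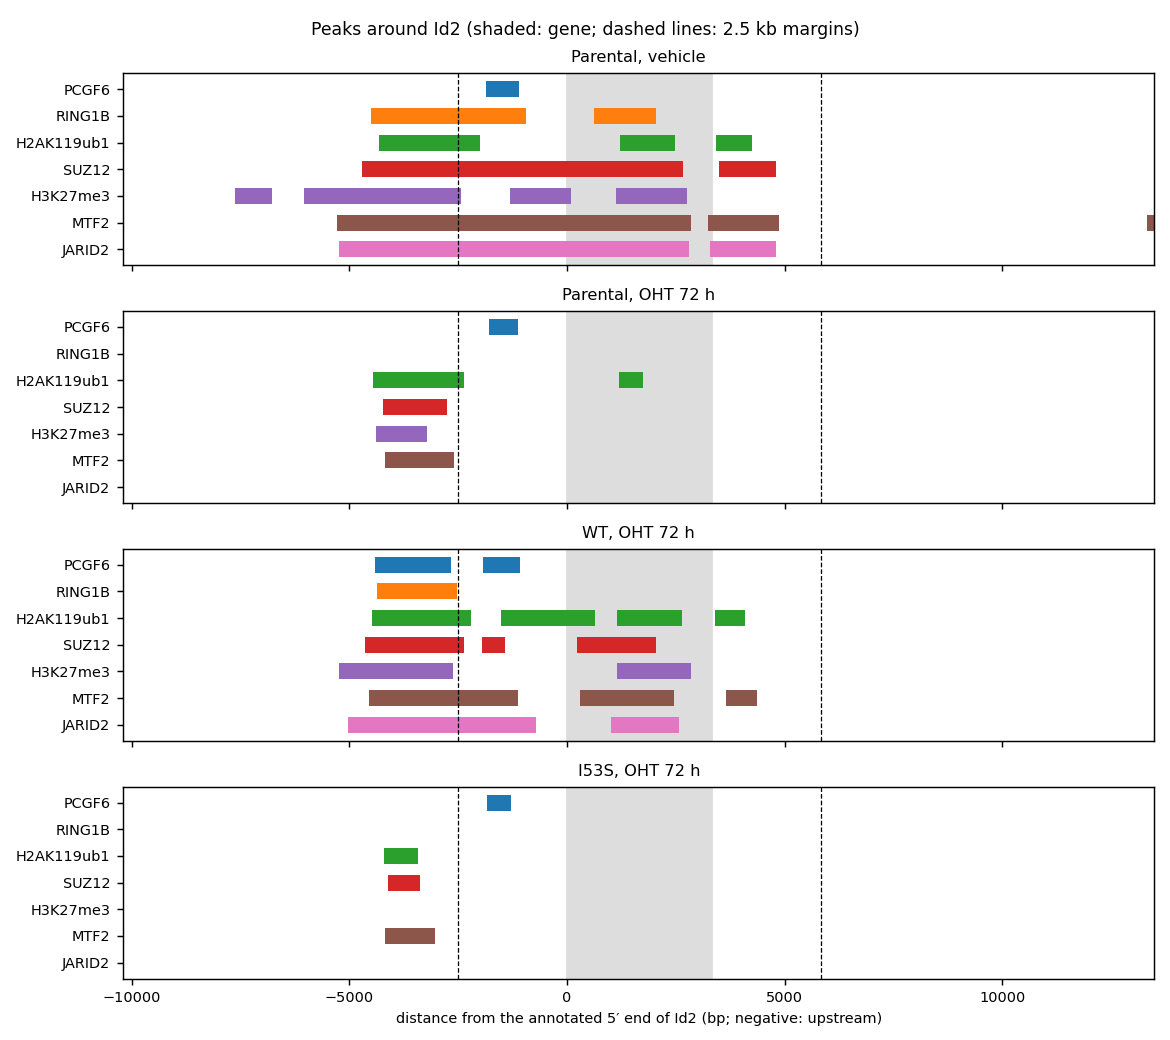
Peaks of 7 antibodies (rows) in 4 conditions (panels) by distance from the annotated 5′ end of Id2 in bp, with upstream to the left, the gene shaded and the 2.5 kb margins dashed. With OHT, Parental and I53S cells have SUZ12 and MTF2 peaks upstream of the margin and none over the gene, while the PCGF6 peak inside the margin is in all 4 panels.

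In I53S cells with OHT the same upstream stretch held SUZ12, MTF2, EPOP and H2AK119ub1 peaks, 3374, 3044, 3212 and 3414 bp from the gene, and none of them reached the gene. WT cells with OHT kept MTF2, JARID2 and SUZ12 peaks over the gene, and their RING1B peak lay 2532 bp upstream, so that it is not in the count above. The upstream PCGF6 peak of Id2 was called in all 4 conditions. The stretch shared by the 4 peaks is chr12:25098430-25098943, and its central 300 bases (chr12:25098537-25098836, plus strand of GRCm38.p6), which lie in no annotated exon, are shown because this is the region inside the margin that had a peak in all 4 conditions, with CpGs in capitals.
Id2 upstream PCGF6 region: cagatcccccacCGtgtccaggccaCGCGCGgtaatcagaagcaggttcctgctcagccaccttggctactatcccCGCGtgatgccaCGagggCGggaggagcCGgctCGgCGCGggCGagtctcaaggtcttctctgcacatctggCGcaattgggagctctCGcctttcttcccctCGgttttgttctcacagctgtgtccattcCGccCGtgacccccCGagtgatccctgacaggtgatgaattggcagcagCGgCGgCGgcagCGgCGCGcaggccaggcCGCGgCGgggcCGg
It held 29 CpGs and neither CACGTG, the E-box, nor GGCGCC on either strand. CACGTG was present in the central 300 bases of 18% of the PCGF6 peaks of Parental cells without OHT and GGCGCC in 27.7%. Id1 also had PCGF6 peaks in all 4 conditions, over annotated exon sequence, sharing chr2:152736259-152736702.

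The length under PRC2 peaks within 10 kb shrank at most of the genes. In Parental cells, SUZ12 peaks covered 8713 bp around Id2 without OHT and 1469 bp with it, 10784 and 1650 bp around Bmp4, 8378 and 1919 bp around Bmp7, 8246 and 2490 bp around Id3, and 2861 and 1025 bp around Id1. Around Bmp2 they covered 3726 and 2860 bp and around Id4 1902 and 1762 bp. In I53S cells with OHT, SUZ12 peaks covered 735 bp around Id2, 818 bp around Id4, 1654 bp around Smad6 and 2631 bp around Bmp2, and none of Bmp4, Bmp7, Id1 and Id3. In WT cells with OHT they covered from 1286 bp at Id4 to 7685 bp at Bmp4. The number of SUZ12 peaks in the genome was 9321 without OHT and 5811 with it in Parental cells, 7156 in WT and 3475 in I53S cells, so called length moved with how much was called.

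**Figure D5:**
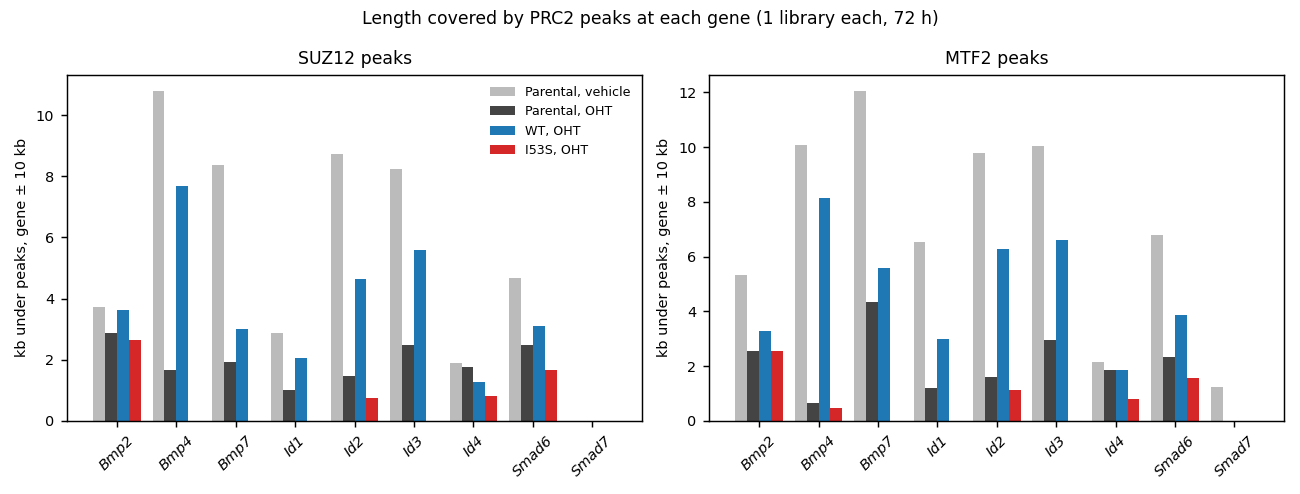
Length in kb (y axis, from 0) under SUZ12 peaks and under MTF2 peaks within 10 kb of each gene (x axis) in 1 library per condition at 72 h. Bars of Parental cells with OHT are shorter than those without at all 8 genes with SUZ12 peaks, from 1762 against 1902 bp at Id4 to 1650 against 10784 bp at Bmp4.

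Set beside the RNA, the 4 genes that lost the most SUZ12 length in Parental cells were Bmp4, Id2, Bmp7 and Id3, in that order, and their RNA log2 fold changes were 0.05, 4.22, 1.41 and -0.41. Of these, Id2 was called, Bmp7 passed the adjusted p only, and Bmp4 and Id3 did not pass. Id4, whose RNA fell in both lines, had 1762 bp under SUZ12 peaks in Parental cells with OHT and 818 bp in I53S cells with OHT, against 1902 bp in Parental cells without OHT. Smad7, which had no SUZ12 peak in any of these libraries, was not called in any line.

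In MTF2 KO cells without OHT, SUZ12 peaks were present at Bmp2, Bmp4 and Id2, beside 13.1% of all genes, and H3K27me3 peaks at Bmp2, Id2 and Id3, beside 14.5%. With OHT, SUZ12 and H3K27me3 peaks were absent from all 9 genes in the Parental KO line, beside 6.38% and 0.988% of all genes, and in the I53S KO line, beside 2.49% and 4.11%. The WT KO line with OHT had SUZ12 peaks at 6 genes, Bmp2, Bmp4, Id1, Id2, Id3 and Smad6, beside 14.9%, and no H3K27me3 peak, beside 8.76%. The number of peaks in the genome moved too: H3K27me3 libraries held 18245 peaks in Parental cells and 7852 in the Parental KO line, both without OHT, and 332 in the Parental KO line with OHT, and SUZ12 libraries held 4634, 1801 and 706 in the WT, Parental and I53S KO lines with OHT.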

How the data were processed

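Counts per gene name, as deposited by the authors, came from SMART-seq2 libraries aligned with STAR 2.7 and counted over exons by featureCounts without strand on GENCODE M21 (GRCm38). Deposited peaks were called by the authors in each library with MACS2 2.1.1 after Bowtie 1.2.2, with −log10 p as score and a lowest score just above 10. Total counts ran from 6957248 to 12743460 per library. Samples were grouped by their labels.

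The counts of the 12 libraries of the RING1B lines were fitted together, and those of the 4 Eed libraries apart, with edgeR 4.0.16 (R 4.3.3; TMM, filterByExpr, quasi-likelihood test, 2 libraries a group), with p-values adjusted over all genes tested. Standard errors and intervals derive from the F statistic. CPM are over the counts of a library in genes that passed the filter, times its TMM factor, except for the limit of 0.431 CPM, which is over all counts. Peaks overlapping a gene widened by 2.5 kb by at least 1 bp were taken, and 10 kb where stated. 1 RYBP library without a group was not compared. The code was tested on simulated data.

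Alternatives were DESeq2 1.42.0, other scaling, other filters, no fold threshold, fits of each comparison alone, a replicate block, leaving out libraries, narrower and stricter peak rules and, chosen after seeing the data, the second MTF2 and JARID2 library. Named genes were all 9 members, of the other pathway genes up to 3 called with the lowest adjusted p per line and direction, and the 2 genes most correlated with each member. The members and lists were chosen with earlier results of these data known.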

Additional observations from a re-analysis of the deposited data

Results flagged for a closer look

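The OHT effect of 2 genes differed between WT and Parental cells by the test of the difference: Id1 by -2.07 and Id2 by -1.86 on the log2 scale, WT minus Parental.

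For further pairs of lines, every OHT library lay above the vehicle libraries in one line and below them in the other. These differences between the separately fitted Eed line and the others were not tested. As log2 OHT effects, Eed minus Parental, they were -3.11 for Id1, 2.42 for Id4 and 0.67 for Smad7. Eed minus I53S was -2.82 for Id1, 2.25 for Id4 and -1.95 for Bmp4, and Eed minus WT was 1.02 for Id4. In the main fits 0 of the Eed effects passed the adjusted p. Those of Smad7 in Parental, Id4 in WT and Bmp4 in I53S cells did not pass either. With 2 libraries a group, full separation also occurs without any change, and how many of all genes show this pattern was not counted. The lines differ in origin as well as in the deleted gene, and these cannot be told apart.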

How the results depend on the processing

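Of 177 counts recomputed under an alternative, 157 kept their direction and size, and of 659 single-gene values 609 kept their direction and their side of the threshold. Without the fold threshold, 2 genes were called for the OHT effect in WT cells, and 5 each for WT against Parental and I53S against WT with OHT. For the difference of the OHT effect between WT and Parental cells, leaving out 1 library gave 0 to 1 called genes where the count changed. For I53S against WT it gave 1 to 2 where the count changed, and DESeq2, no filter on low counts and the replicate block gave 1 each. In the Eed line, at least 10 counts in every library gave 1 called gene, as did leaving out the second OHT library, which gave 1.

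The labels give same-numbered libraries no shared origin. The correlations of their deviations ran from -0.00931 to 0.425 among the 12 libraries, not all over 0.1. In the Eed line the correlation was 0.502 over 1 pair of groups, too few to settle whether the numbers pair the libraries, and the Eed calls depend on it: with the replicate block 3 genes were called, Id2 (1.501, adjusted p = 1.5e-13), Bmp4 (-1.64, adjusted p = 7.75e-05) and Smad6 (1.51, adjusted p = 0.0228), against 0 without it (edgeR).

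Peaks with a score of at least 20 were present in 27 of 99 pairs in Parental and 14 in I53S cells with OHT. Over the 13 comparisons, 75 of 1456 single-gene values reversed direction, 70 of them with 1 library left out, and 0 of the 75 were called in either fit. Those of the 4 OHT effects and of I53S against Parental cells with OHT that the report prints were Smad7 in I53S cells with at least 10 counts in every library (0.025) and with 1 library left out (from -0.38 to 0.16), and, with 1 library left out, Bmp4 in Parental cells (from -0.16 to 0.21), Bmp2 in WT cells (from -2.48 to 4.33), Bmp2 in the Eed line (from -0.39 to 0.016), and Bmp2 (from -0.14 to 0.82) and Id1 (from -0.83 to 0.0084) in I53S against Parental cells. The cause was not tested. With 2 libraries a group and Bmp2 at 0 to 2.39 CPM in most groups, depth limits that gene most.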
